A study of Mus musculus with 6 samples.

Results

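The transcription factors that set epithelial fate and regional identity in the intestine were examined in RNA sequencing of mouse colon. The set held 9 of the 24517 genes listed in the count files, taken by name: the caudal-type homeobox factors Cdx1 and Cdx2, the zinc finger factor Gata6, the nuclear receptors Hnf4a and Hnf4g, the Krüppel-like factors Klf4 and Klf5, and the basic helix-loop-helix factors Atoh1 and Hes1. The list is a list of names with no threshold on measured values, although it was drawn up with earlier results of these data known, and all 9 passed the filter on low counts. The study compared the colon of 3 Nsd2fl/fl mice with that of 3 Nsd2ΔIE mice. NSD2 is a histone methyltransferase that places the dimethyl mark on lysine 36 of histone H3. In Nsd2fl/fl mice the gene carries loxP sites but is intact, and in Nsd2ΔIE mice it is deleted by a Cre recombinase driven by the Villin promoter. All animals had a C57BL/6J background and all were on a high-fat, high-cholesterol diet (HFCD), so no library gives the level of these factors on a normal diet. The labels give 16 weeks of this diet, while the paper states a longer time. Villin drives expression in epithelial cells, and the other cells of the colon keep the gene.

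CDX1 and CDX2 establish and maintain intestinal identity along the length of the gut, and GATA6 takes part in regional patterning and in the proliferation of crypt cells. HNF4A and its paralog HNF4G drive the genes of mature enterocytes, KLF5 is known for its role in proliferating crypt cells and KLF4 for its role in differentiation, including that of goblet cells. ATOH1 commits progenitors to the secretory lineages, and HES1, a target of Notch signalling, represses Atoh1 and favours the absorptive fate.

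The 6 libraries were of similar depth, with 38041832 to 38604680 counts. Nsd2 was at 47.8, 59.1 and 68.9 CPM (counts set relative to the library total after TMM scaling) in Nsd2fl/fl and at 24.5, 23.1 and 27.5 CPM in Nsd2ΔIE. The groups did not overlap, and the quasi-likelihood test of edgeR gave a log2 difference of -1.23 with 0.302 as the adjusted p and 0.000133 as the unadjusted p. Xist had 0 to 4 counts in the Nsd2fl/fl libraries and 21217 to 24234 in the Nsd2ΔIE libraries, while 4 Y-linked genes together had 5058 to 6110 and 0 to 1 counts. The methods of the study name male littermates, which these counts in the Nsd2ΔIE libraries do not match. Since this sex-linked pattern follows genotype in all 6 libraries, the 2 cannot be told apart for the 9 factors. The first principal component held 51.0% of the variance and set Nsd2fl/fl replicate 2 and Nsd2ΔIE replicates 2 and 3 apart from the other 3 libraries. The labels name no batch. In bulk tissue, fewer cells of a type and less RNA per cell cannot be told apart.

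No factor passed an adjusted p of 0.05 (0 of 9), where 0.0306% of the 16347 genes tested did. On simulated counts the same fit recovered 71 of 98 changes of 4-fold and 13 of 99 changes of 2-fold at this adjusted p. The absence of a call therefore does not show that a factor was unchanged. A second, laxer threshold followed the study, with p under 0.05 before adjustment and a log2 fold change beyond 0.322 in size. Klf4 and Gata6 passed it in the lower direction, 2 of 9 factors against 2.21% of all genes, and no factor passed it in the higher direction, against 8.05% of all genes. At an unadjusted p under 0.05 alone, which 11.1% of all genes had, the same 2 factors were counted. Cdx1 and Klf4 had all 3 Nsd2ΔIE values below all 3 Nsd2fl/fl values, against 7.28% of all genes, and no factor lay wholly above, against 11.4% of all genes. The fitted log2 fold changes were below 0 for 8 of the 9 factors, with a median of -0.20, beside a median of -0.041 over all genes tested. Cdx2 was the exception, and its spread within each genotype was larger than the difference between them. Over all 16347 genes tested, 9202 had fitted values below 0 and 7145 above, and later counts by sign in this fit stand beside these.

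**Figure D1:**
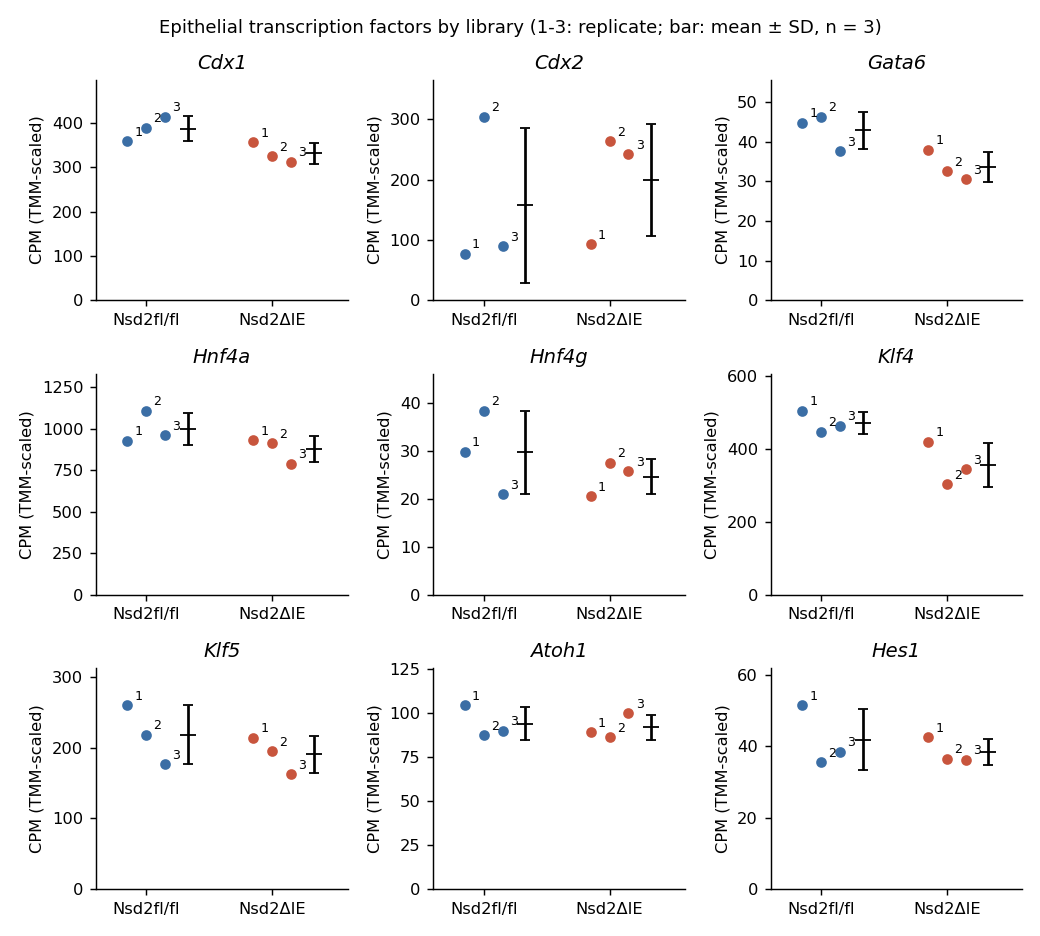
Level of each of the 9 factors in each library, in TMM-scaled CPM on a linear axis from 0, with points numbered by replicate and bars for the mean ± SD of 3 libraries. Klf4 and Cdx1 have no overlap between Nsd2fl/fl (blue) and Nsd2ΔIE (red), and Cdx2 lies at 93.3 CPM or below in 3 libraries and at 242 CPM or above in the other 3, with both genotypes in each range.

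The sequences just before the transcription start are shown for Cdx2, whose level varied most between libraries, for Klf4, which had the lowest fitted fold change, and for Atoh1, whose level was the most even. They are RefSeq promoter sequences of assembly GRCm38.p6, 5′ to 3′ on the strand of the gene, ending before the annotated first exon. Entries for 4 of the 9 factors, Hnf4a being the other, were in the table used. The Cdx2 sequence is chr5:147307271-147307499 on the minus strand, the Klf4 sequence chr4:55532476-55532725 on the minus strand and the Atoh1 sequence chr6:64728875-64729124 on the plus strand. Capitals mark matches on either strand to a short motif.
Cdx2: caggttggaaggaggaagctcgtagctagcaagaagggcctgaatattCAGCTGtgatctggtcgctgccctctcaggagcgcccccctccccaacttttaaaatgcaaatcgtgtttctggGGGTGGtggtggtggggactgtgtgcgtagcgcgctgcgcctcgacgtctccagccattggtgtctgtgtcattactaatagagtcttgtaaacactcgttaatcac
Klf4: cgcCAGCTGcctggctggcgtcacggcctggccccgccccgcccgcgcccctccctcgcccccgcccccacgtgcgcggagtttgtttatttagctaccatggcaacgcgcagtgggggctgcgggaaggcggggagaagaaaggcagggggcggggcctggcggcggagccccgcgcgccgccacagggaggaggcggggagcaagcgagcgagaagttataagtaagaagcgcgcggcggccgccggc
Atoh1: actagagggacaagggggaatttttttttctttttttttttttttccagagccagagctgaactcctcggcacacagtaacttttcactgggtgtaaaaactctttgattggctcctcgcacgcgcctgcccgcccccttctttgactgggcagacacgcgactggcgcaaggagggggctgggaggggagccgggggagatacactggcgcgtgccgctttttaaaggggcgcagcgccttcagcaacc
The motifs searched were CATAAA for CDX factors, CAAAGTCCA for HNF4, CCACCC for KLF factors, AGATAA for GATA factors, CAGCTG for ATOH1 and CACNAG for HES1. The Cdx2 sequence held CCACCC, in reverse complement, starting 128 bases before the start site, and CAGCTG starting 202 bases before it. The Klf4 sequence held CAGCTG starting 247 bases before the start site, and the Atoh1 sequence held no match. Of 32851 promoter windows of 250 bases, 28.1% held CCACCC and 13.0% held CAGCTG. The other motifs were present in 10.8% (CATAAA), 0.384% (CAAAGTCCA), 9.99% (AGATAA) and 36.7% (CACNAG) of the windows. A match describes only the letters of the window.

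Among the regional factors, Cdx1, on the minus strand of chromosome 18 at 61018862 to 61036199 (GENCODE M21, GRCm38), was at 358, 388 and 414 CPM in Nsd2fl/fl and at 357, 324 and 312 CPM in Nsd2ΔIE. All 3 Nsd2ΔIE libraries were below the lowest control, Nsd2ΔIE replicate 1 only slightly. The means were 387 ± 27.8 and 331 ± 23.0 CPM (SD, n = 3 per group). On the log2 scale they differed by -0.22 (SE 0.128), and the p adjusted over all genes was 0.575 (edgeR).

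Cdx2, on the minus strand of chromosome 5 at 147300805 to 147307270, was at 77.2, 305 and 90.1 CPM in Nsd2fl/fl and at 93.3, 263 and 242 CPM in Nsd2ΔIE. Nsd2fl/fl replicate 2 and Nsd2ΔIE replicates 2 and 3 were high and the other 3 libraries low, so that each genotype held libraries of both kinds. The highest Nsd2fl/fl library was 3.94-fold above the lowest, and the highest Nsd2ΔIE library 2.82-fold above the lowest. The genotype difference was 0.34 on the log2 scale (SE 0.614), with an adjusted p of 0.854. Without Nsd2fl/fl replicate 2 it was 1.255 (unadjusted p = 0.0256), and without Nsd2fl/fl replicate 1 it was 0.013. Across the 6 libraries the ratio of the highest to the lowest Cdx2 value was larger than that of 85.6% of the genes tested, and the same ratio was 1.33 for Cdx1, larger than that of 21.1% of them.

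The 3 libraries high in Cdx2 were those that the first principal component set apart. They were also the libraries low in Hoxb13, a homeobox gene of the most distal colon, which was at 365, 0.706 and 340 CPM in Nsd2fl/fl and at 310.0, 4.97 and 26.2 CPM in Nsd2ΔIE. Of the list of other epithelial transcription factors, Isx, an intestinal homeobox gene that represses vitamin A uptake, was high in the libraries high in Cdx2, with 6.78, 242 and 5.95 CPM in Nsd2fl/fl and 7.52, 125 and 73.7 CPM in Nsd2ΔIE. Foxa2, a forkhead factor of endodermal epithelia, was low in them, with 38.3, 11.5 and 29.3 CPM in Nsd2fl/fl and 32.8, 9.61 and 17.9 CPM in Nsd2ΔIE. Isx and Foxa2 were chosen after their values were seen. The position along the colon at which each sample was cut is not in the labels, and its part in the Cdx2 values was not tested. With the library sets of the first component as a covariate, the genotype difference of Cdx2 was -0.057 (SE 0.146) on the log2 scale with an adjusted p of 0.888 (edgeR). The standard error was smaller and the sign turned. These sets came from the same counts, Cdx2 included, and are its high and low libraries, so the smaller standard error was fixed in advance. P-values with this covariate, here and below, take no account of how the sets were formed.

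**Figure D2:**
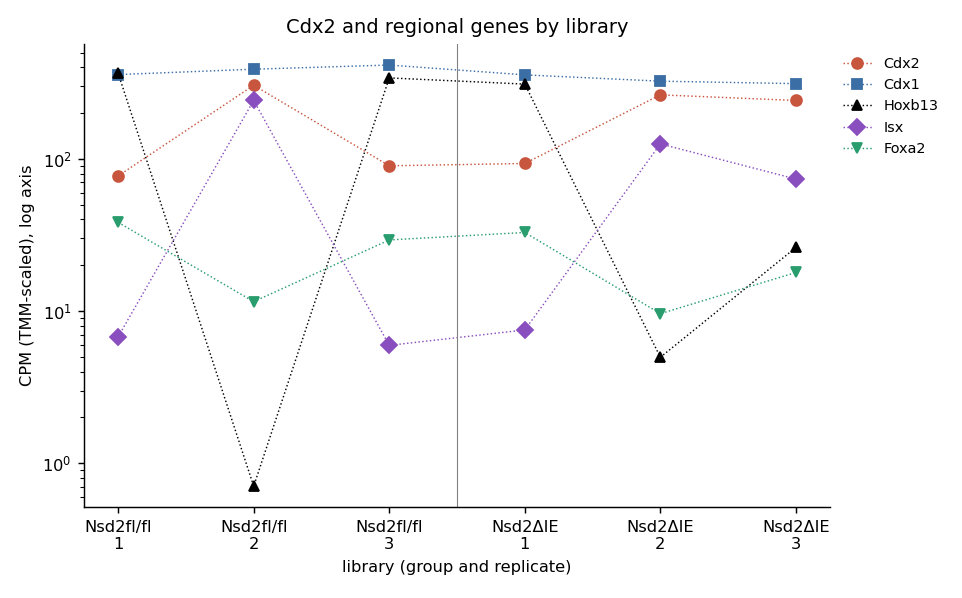
Level of Cdx2, Cdx1, Hoxb13, Isx and Foxa2 in each library, in TMM-scaled CPM on a log axis, with the genotypes to the left and right of the grey line and dotted lines that only join points of a gene. Cdx2 and Isx are high and Hoxb13 and Foxa2 low in Nsd2fl/fl replicate 2 and Nsd2ΔIE replicates 2 and 3, while Cdx1 spans 1.33-fold over all 6 libraries.

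Gata6, on the plus strand of chromosome 18 at 11052064 to 11085635, was at 44.8, 46.4 and 37.66 CPM in Nsd2fl/fl and at 37.97, 32.5 and 30.5 CPM in Nsd2ΔIE. The groups overlapped only in that Nsd2ΔIE replicate 1 was slightly above Nsd2fl/fl replicate 3. The means were 42.9 ± 4.64 and 33.7 ± 3.85 CPM (SD, n = 3 per group), which is a log2 difference of -0.35 (SE 0.134). For Gata6 edgeR gave 0.0361 as the unadjusted p and 0.419 as the adjusted p. Gata6 shares 93 exon bases with the antisense gene 1010001N08Rik, which the count files do not list, and the use of strand in counting is not given in the sources used here. Without Nsd2fl/fl replicate 2 the difference was -0.29 (unadjusted p = 0.102).

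Gata4 and Gata5, relatives of Gata6 known from the small intestine, stood in the list of other epithelial factors and were chosen after their values were seen. Per gene length, Gata4 did not exceed 0.713 FPKM (counts scaled to gene length and library total) in any library and Gata5 did not exceed 1.32 FPKM, below the lowest Gata6 value of 9.96 FPKM.

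Among the enterocyte factors, Hnf4a, on the plus strand of chromosome 2 at 163506808 to 163572910, was at 926, 1107 and 962 CPM in Nsd2fl/fl and at 929, 912 and 788 CPM in Nsd2ΔIE. Nsd2fl/fl replicate 2 was the highest and Nsd2ΔIE replicate 3 the lowest, and the groups overlapped. The log2 difference was -0.19 (SE 0.160, adjusted p = 0.700, edgeR). Hnf4g, on the plus strand of chromosome 3 at 3508030 to 3658052, was at 29.8, 38.4 and 21.0 CPM in Nsd2fl/fl and at 20.6, 27.6 and 25.7 CPM in Nsd2ΔIE. The control libraries spanned the whole range of the Nsd2ΔIE libraries apart from Nsd2ΔIE replicate 1. Hnf4g differed by -0.27 on the log2 scale (SE 0.235, adjusted p = 0.707, edgeR). With the library sets of the first component as a covariate this was -0.42 (SE 0.168, unadjusted p = 0.0422, adjusted p = 0.371). The paralogs kept their order in every library, with an FPKM of Hnf4a 27.4-fold to 43.5-fold that of Hnf4g with the deposited lengths and 15.7-fold to 24.9-fold with the exon lengths of GENCODE M21.

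Among the Krüppel-like factors, Klf4, on the minus strand of chromosome 4 at 55527143 to 55532466, was at 505, 447 and 464 CPM in Nsd2fl/fl and at 420, 303 and 345 CPM in Nsd2ΔIE. All 3 Nsd2ΔIE libraries were below all 3 controls. The means were 472 ± 29.8 and 356 ± 59.4 CPM (SD, n = 3 per group), a fold of 0.754. On the log2 scale Klf4 differed by -0.41 (SE 0.161), and edgeR gave 0.0404 as the unadjusted p and 0.426 as the adjusted p. Within the 3 libraries high in Cdx2 the log2 difference of Klf4 was -0.47 and within the other 3 it was -0.20, each from 1 library against 2 and with no test. For Gata6 these values were -0.56 and -0.11, and for Hnf4g -0.53 and -0.28. Cdx1 (-0.29 and -0.11), Hnf4a (-0.39 and -0.024) and Klf5 (-0.30 and -0.0027) were also below 0 in both sets, Hnf4a and Klf5 only slightly in the second. The sign differed between the sets for Cdx2 (-0.27 and 0.16), Atoh1 (0.086 and -0.12) and Hes1 (0.034 and -0.068). With the library sets as a covariate, edgeR gave unadjusted p-values of 0.0536 for Klf4 and 0.0515 for Gata6. Klf4 and Gata6 also did not have an unadjusted p under 0.05 with library totals alone, where their log2 fold changes were -0.28 and -0.23 and their unadjusted p-values 0.132 and 0.146.

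Klf5, on the plus strand of chromosome 14 at 99298691 to 99315036, was at 260, 218 and 177 CPM in Nsd2fl/fl and at 214, 195 and 162 CPM in Nsd2ΔIE. The groups overlapped over most of their range. The log2 difference was -0.20 (SE 0.182, adjusted p = 0.720, edgeR). Among the other 11 Krüppel-like factors tested, 7 had fitted values above 0 and 4 below, with a median of 0.046. Klf3, a repressor of the family, passed the second threshold in the lower direction at -0.40 (SE 0.153, adjusted p = 0.414).

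Among the factors of the absorptive or secretory choice, Atoh1, on the plus strand of chromosome 6 at 64729125 to 64731245, was at 105, 87.6 and 90.1 CPM in Nsd2fl/fl and at 89.3, 86.5 and 99.9 CPM in Nsd2ΔIE. The values of both genotypes interleaved. The means were 94.1 ± 9.22 and 91.9 ± 7.09 CPM (SD, n = 3 per group), a log2 difference of -0.035 (SE 0.116, adjusted p = 0.927, edgeR). The highest library was 1.21-fold above the lowest, a smaller span than that of the other 8 factors, and 7.60% of the genes tested had a smaller span still. Hes1, on the plus strand of chromosome 16 at 30064384 to 30067796, was at 51.6, 35.5 and 38.5 CPM in Nsd2fl/fl and at 42.5, 36.5 and 36.2 CPM in Nsd2ΔIE. Nsd2fl/fl replicate 1 was the highest, and the other 5 libraries lay between 35.5 and 42.5 CPM. Hes1 differed by -0.12 on the log2 scale (SE 0.165, adjusted p = 0.804, edgeR).

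The genes around this choice were taken from lists of the Notch pathway and of the lineages. Of 20 Notch pathway genes, 19 were tested, Hes5 having at most 15 counts in a library. At the second threshold 2 were higher, the ligand Jag2 (log2 fold change 0.47, SE 0.188) and the target Hey1 (0.67, SE 0.220). Adam10, the protease that cleaves Notch at the cell surface, was lower (-0.40, SE 0.167), and the median of the pathway was 0.0051. These counts stand beside 8.05% of all genes that were higher and 2.21% that were lower at this threshold, as do those of the lists that follow. Hey1 was low in level, at 2.05 to 2.46 CPM in Nsd2fl/fl and at 3.13 to 3.83 CPM in Nsd2ΔIE. Of 17 secretory lineage genes, Dclk1, a marker of tuft cells that enteric neurons also express, was higher (0.45, SE 0.143). Retnlb, a goblet cell product with antibacterial activity, was lower (-2.19, SE 0.763). Retnlb levels were 355, 949 and 2343 CPM in Nsd2fl/fl and 185, 138 and 478 CPM in Nsd2ΔIE, and the groups overlapped. Of 15 absorptive lineage genes, only Ceacam20, a brush border adhesion protein, passed, with a log2 fold change of -0.69 (SE 0.241). The adjusted p-values of these genes were 0.340 to 0.441 (edgeR).

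Ratios between paired factors were taken within each library, which removes the scaling between libraries. The Atoh1 to Hes1 ratio in FPKM was 1.66, 2.01 and 1.91 in the Nsd2fl/fl libraries and 1.71, 1.93 and 2.25 in the Nsd2ΔIE libraries. The genotype means differed by 0.076 on the log2 scale, with p = 0.6 in an exact two-sided permutation test, and the ranges overlapped. The Klf4 to Klf5 ratio was 0.444, 0.469 and 0.601 in the Nsd2fl/fl libraries and 0.449, 0.356 and 0.486 in the Nsd2ΔIE libraries, a log2 difference of -0.23 with an exact permutation p of 0.5. These values below 1 rest on the deposited gene lengths, and with the exon lengths of GENCODE the same ratio was 2.66 to 4.48 over the 6 libraries, with the genotype difference unaffected. The ratio therefore overlapped between the genotypes although Klf4 itself did not. The Cdx2 to Cdx1 ratio was 0.176, 0.640 and 0.178 in the Nsd2fl/fl libraries and 0.213, 0.663 and 0.633 in the Nsd2ΔIE libraries, with an exact permutation p of 0.3. It fell into a low and a high range, each with libraries of both genotypes. The Gata6 to Cdx2 ratio was 0.376, 0.0986 and 0.271 in the Nsd2fl/fl libraries and 0.264, 0.0801 and 0.0817 in the Nsd2ΔIE libraries, with an exact permutation p of 0.2, and it was high where Cdx2 was low. The Hnf4a to Hnf4g ratio differed by 0.051 on the log2 scale, with an exact permutation p of 0.8. With 3 libraries against 3 the smallest p this test can give is 0.1, and the p-values adjusted over the 5 pairs were 0.75 to 0.8.

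**Figure D3:**
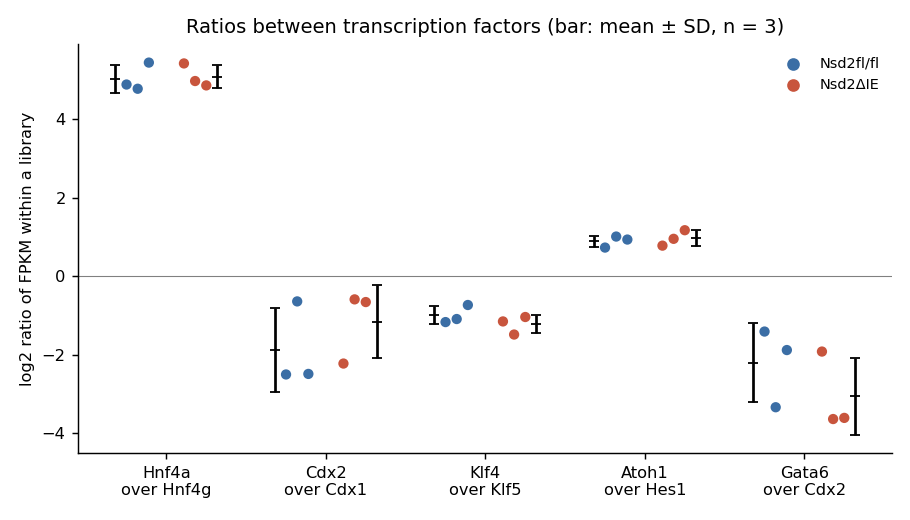
Log2 ratio of deposited FPKM between the 2 factors of each of 5 pairs in each library, with bars for the mean ± SD of 3 libraries per genotype. The Atoh1 to Hes1 and Klf4 to Klf5 ratios are narrow in both genotypes, while both ratios with Cdx2 fall into separate ranges that each hold libraries of both genotypes.

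Levels were compared between factors only in FPKM. In decreasing order, the means over all 6 libraries were 204 ± 11.5 for Cdx1, 198 ± 12.2 for Hnf4a, 118 ± 20.3 for Klf5, 83.3 ± 47.4 for Cdx2, 54.6 ± 8.88 for Klf4, 44.0 ± 5.30 for Atoh1, 23.2 ± 3.98 for Hes1, 11.5 ± 1.55 for Gata6 and 6.06 ± 1.31 FPKM for Hnf4g (SD, n = 6). Cdx2 held rank 4 only by its mean, since it had rank 3 in the 3 libraries where it was high and rank 5 or 6 in the others. The ranges of the neighbours Cdx1 and Hnf4a overlapped, and so did those of Klf5 and Cdx2, of Cdx2 and Klf4 and of Klf4 and Atoh1. The ranges of Hnf4a and Klf5, of Atoh1 and Hes1, of Hes1 and Gata6 and of Gata6 and Hnf4g did not overlap. The order depends on the gene lengths used. The length implied by the deposited Klf4 counts and FPKM was 7553 bases, longer than the 5324 bases of the whole annotated gene in GENCODE M21. The implied Klf5 length was 1728 bases, against 5201 bases of annotated exon. With the exon lengths of GENCODE, Klf4 was at 135 ± 22.01 FPKM and Klf5 at 39.3 ± 6.74 FPKM, so the order of these factors was opposite, and Gata6 (5.86 FPKM) was then below Hnf4g (10.3 FPKM). Cdx1 and Hnf4a remained the highest under both sets of lengths. Genotype differences of a gene do not depend on its length.

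**Figure D4:**
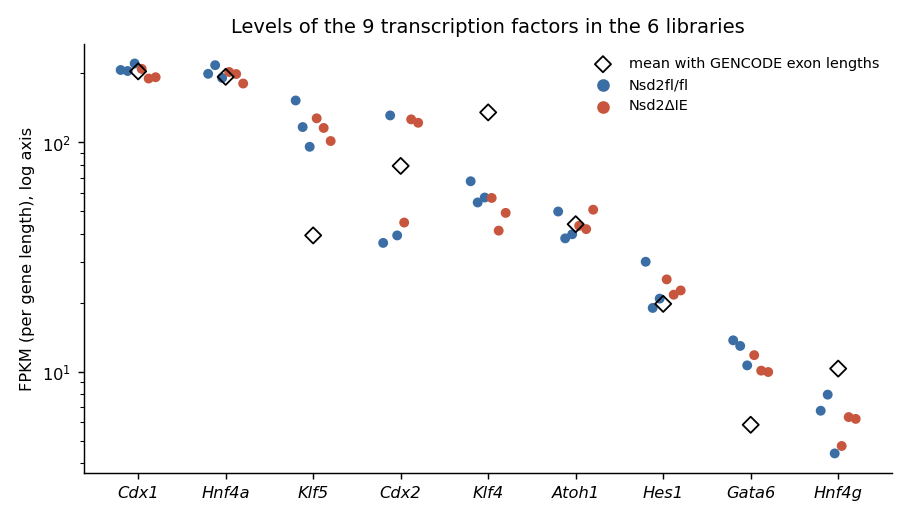
FPKM of each factor in each of the 6 libraries on a log axis, as deposited (circles, blue for Nsd2fl/fl and red for Nsd2ΔIE), and the mean of the 6 libraries with GENCODE exon lengths (open diamonds). Cdx1 and Hnf4a lie near 200 FPKM, Cdx2 falls into 2 ranges, and the diamonds stand apart from the circles for Klf4, Klf5, Gata6 and Hnf4g.

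The other epithelial transcription factors gave the context for these values. Of 27 listed, 26 were tested, Onecut2 having at most 3 counts in a library, and 19 had fitted values below 0. Their median log2 fold change was -0.20, like that of the 9 factors. Those lower at the second threshold included Elf3, an ETS factor of differentiating epithelium (-0.60, SE 0.142), and Tcf7l2, a mediator of Wnt signalling (-0.48, SE 0.182). The 2 that were higher were Pou2f3, the master factor of tuft cells (0.60, SE 0.244), and Creb3l3, a factor of lipid metabolism (1.08, SE 0.444). The adjusted p-values of these 4 genes were 0.302 to 0.441 (edgeR). Elf3 was at 521, 577 and 456 CPM in Nsd2fl/fl and at 331, 332 and 364 CPM in Nsd2ΔIE, with no overlap. Of 11 small intestinal identity genes 6 were tested, with a median log2 fold change of 0.13. Of these, 4 had fitted values above 0 and 2 below. Only Fabp6, the ileal bile acid binding protein, passed the second threshold, in the higher direction. Fabp6 was at 2.73, 3.98 and 2.98 CPM in Nsd2fl/fl and at 4.29, 224 and 63.5 CPM in Nsd2ΔIE. Its high libraries were 2 of the 3 that were high in Cdx2. None of the 3 posterior Hox genes passed the second threshold.

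Markers of cell types were read beside the 9 factors, since the samples were whole colon. All 10 general epithelial markers had fitted values below 0, with a median log2 fold change of -0.31, and none of them passed the second threshold. Their summed level was 13946 to 23354 CPM in Nsd2fl/fl and 13343 to 15294 CPM in Nsd2ΔIE, so the sums overlapped. Taken singly, 2 of the 10 markers lay wholly lower in Nsd2ΔIE, against 7.28% of all genes. Of 8 smooth muscle markers 7 were higher at the second threshold, with a median of 1.22, and their summed level was 1416 to 4047 CPM in Nsd2fl/fl and 5031 to 10770 CPM in Nsd2ΔIE. All 8 enteric nervous system markers were higher, with a median of 1.01. Of the other lists, 3 of 7 fibroblast, 1 of 6 endothelial, 2 of 5 adipocyte and 0 of 9 leukocyte markers tested were higher, and none was lower. When the summed counts of the epithelial markers served as library size, 2 of the 9 factors were below 0, Klf4 at -0.17 and Gata6 at -0.094. Their unadjusted p-values were 0.551 and 0.735 (edgeR). The median of the 9 was 0.033, below the median of 0.22 over all genes tested with this scaling, although Cdx2 lay above the latter. With this scaling Cdx2 was at 0.81, with an unadjusted p of 0.0645. The part of muscle and nerve tissue in the values of the 9 factors was not tested beyond this scaling.

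Per 1000 counts of the epithelial markers, Klf4 had 36.2, 19.2 and 28.1 counts in Nsd2fl/fl and 27.5, 20.8 and 25.8 counts in Nsd2ΔIE. The 3 Nsd2ΔIE values lay within the range of the controls only through Nsd2fl/fl replicate 2, and were below Nsd2fl/fl replicates 1 and 3. Gata6 had 3.21, 1.99 and 2.28 counts in Nsd2fl/fl and 2.48, 2.23 and 2.29 counts in Nsd2ΔIE, again within the range of the controls. Nsd2fl/fl replicate 2, which had the highest epithelial sum, was the lowest library for both factors on this scale. It was also the lowest for Cdx1, Hnf4a, Klf5, Atoh1 and Hes1, so this was not particular to Klf4 and Gata6.

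**Figure D5:**
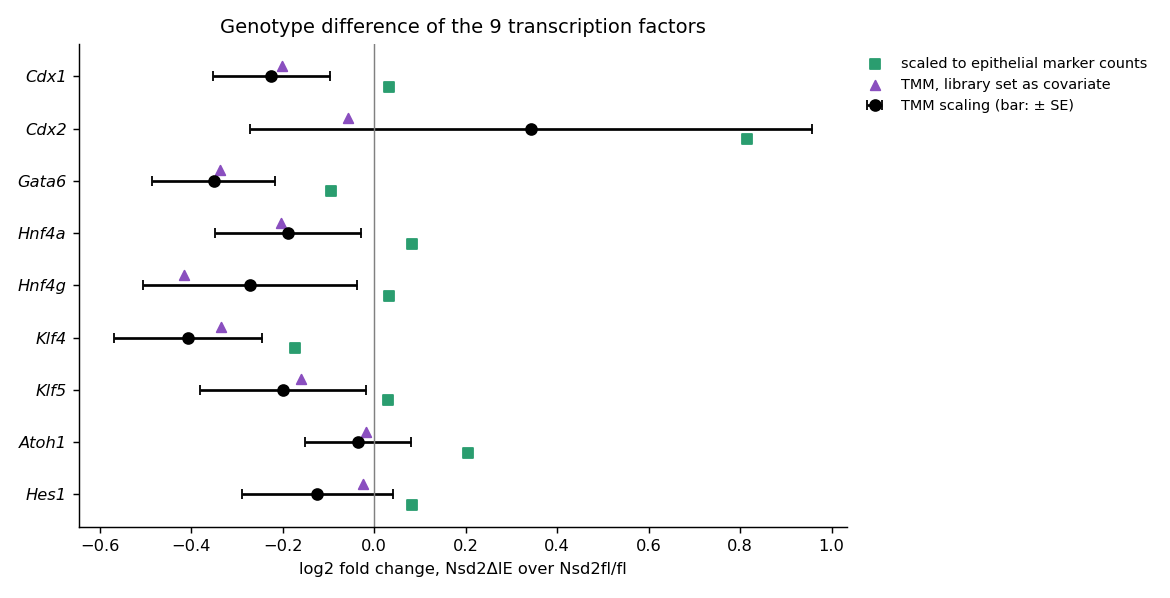
Log2 fold change of each factor, Nsd2ΔIE over Nsd2fl/fl, with TMM scaling (black circles, bars ± SE from edgeR), with epithelial marker counts as library size (green squares) and with TMM scaling and the library sets of the first principal component as a covariate (purple triangles). Black circles lie below 0 for 8 factors, green squares below 0 only for Klf4 and Gata6, and the bar of Cdx2 is the widest. The median over all genes tested was -0.041 with TMM scaling and 0.22 with epithelial marker counts.

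The genes most like each factor over the 6 libraries were found by the root mean square difference of centred log2 CPM among 13277 genes. For Cdx2 they were Tpd52l1 (0.109), a member of the tumour protein D52 family, and Snx7 (0.158), a sorting nexin, both high in the same 3 libraries. Tpd52l1 was at 3.40, 11.3 and 3.99 CPM in Nsd2fl/fl and at 3.43, 10.5 and 9.91 CPM in Nsd2ΔIE. For Hnf4g they were Fas (0.0669), a death receptor, and Sesn3 (0.0740), a sestrin. For the other factors the 2 nearest genes lay within 0.0181 (Cmtm4 for Klf5) and 0.0591 (Nxf1 for Klf4), with Lsg1 and Rchy1 for Cdx1, Vps54 and Ap2b1 for Hnf4a, Elk4 for Klf4, Irf2 for Klf5, Ylpm1 and Nos3 for Atoh1, Zfp318 and Snx27 for Hes1, and Taf4 and Shroom3 for Gata6. Among the 9 factors themselves the closest pair was Cdx1 and Hnf4a, at 0.0986. The root mean square of a factor's own centred values was 0.140 for Cdx1 and 0.144 for Hnf4a. It ran from 0.103 (Atoh1) to 0.827 (Cdx2). A small difference between genes that vary little is therefore weak evidence of a shared pattern.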

How the data were processed

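Total RNA of mouse colon was sequenced from 3 Nsd2fl/fl and 3 Nsd2ΔIE animals. The authors deposited whole-number read counts per gene symbol and, beside them, FPKM values for the same genes. The submitters' processing notes name fastp, HISAT2, HTSeq, R 3.2.0 and build mm10. The annotation and the use of strand are not given in the sources used here. Groups and replicate numbers came from the labels, and p-values measure the spread between these libraries.

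The 9 factors and the 14 gene lists were chosen with earlier results of these data known. Genes passing filterByExpr (16347) were fitted with the quasi-likelihood test of edgeR 4.0.16 in R 4.3.3 (TMM, no covariates, two-sided, Benjamini-Hochberg adjustment over all genes), in a script tested on simulated data. SE was the size of the log2 fold change over the root of its F statistic. Log2 CPM used a prior count of 2. Genes named are the 9 factors, up to 5 per list and direction at the second threshold, Nsd2, Hoxb13 and the 2 nearest genes per factor among those with an average log2 CPM of at least 1. Isx, Foxa2, Gata4 and Gata5 did not pass that threshold and were added after their values were seen. The values of 1 gene of the lists are not reported here, although counts and medians over its list include it. DESeq2 1.42.0, limma 3.58.1 (on voom weights or log2 FPKM with pseudocounts of 1 and 0.1), other scalings and omitted libraries were alternatives, and GENCODE exon lengths for levels and ratios were added after seeing the data. No library pair differed by less than 35.5 chi-square units per degree of freedom, so all 6 were kept.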

Additional observations from a re-analysis of the deposited data

How the results depend on the processing

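No factor passed an adjusted p of 0.05 in any of 17 alternative fits (edgeR, limma or DESeq2), although DESeq2 called 466 genes in all (2.85%) against 5 with edgeR. Klf4 and Gata6 stayed below 0 in all 17, from -0.54 to -0.17 and from -0.44 to -0.094 on the log2 scale, with an unadjusted p under 0.05 in 7 fits each. The count of factors lower at the second threshold was 0 when the scaling used library totals, upper quartiles or epithelial marker counts and in both log2 FPKM fits, 1 (Hnf4g) with the library sets of the first component, and 0 to 2 when a library was left out (0 without Nsd2fl/fl replicate 1, Nsd2ΔIE replicate 2 or Nsd2ΔIE replicate 3, 1 without Nsd2fl/fl replicate 2). The share of all genes lower at this threshold moved as well, from 2.21% to 0.869% with library totals, 1.22% with upper quartiles, 0.404% with epithelial counts, 0.661% and 0.844% in the FPKM fits and 3.32% with the library sets, and it was 0.879% to 4.48% when a library was left out. The count higher was 0 to 1, Cdx2 passing without Nsd2fl/fl replicate 2. The median of the 9 was -0.083 with library totals, 0.033 with epithelial counts and -0.062 and -0.063 in the FPKM fits, while the median of all genes moved from -0.041 to 0.086 with library totals and to 0.22 with epithelial counts.

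Signs turned for Atoh1 with upper-quartile factors (0.034), library totals (0.090), epithelial counts (0.20) and the FPKM fits (0.092 and 0.094), and for Hes1 with epithelial counts (0.083) and the FPKM fits (0.016 and 0.018). With epithelial counts Cdx1 (0.033), Hnf4a (0.083), Hnf4g (0.032) and Klf5 (0.029) turned, and with the library sets Cdx2 (-0.057). Leaving out a library gave -0.099 to 0.046 for Atoh1 and -0.23 to 0.051 for Hes1, -0.12 to 0.26 for the log2 difference of the Hnf4a to Hnf4g ratio and -0.026 to 0.17 for that of Atoh1 to Hes1. The cause was not tested. With the replicate block the log2 fold changes were -0.42 for Klf4 and -0.35 for Gata6, and no call changed. The labels do not state that replicate numbers pair animals, so the main fit used no pairing. Deviations of same-numbered libraries correlated at 0.501, 0.643 and -0.17 for replicates 1, 2 and 3. Libraries numbered 1 shared a set of the first component, as did those numbered 2, while those numbered 3 did not. The spread between libraries, not the depth, limits the precision, as the factors had 748 to 39186 counts in a library.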
